A study of Mus musculus with 8 samples.

Results

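The 10 genes described here lead glucose from the blood to lactate: the transporter Slc2a1 and the enzymes Hk2, Gpi1, Pfkl, Aldoa, Pgk1, Pgam1, Eno1, Pkm and Ldha. They were taken by symbol from a table of 24420 genes in total RNA, which lists all 10, and a table of 5804 genes in polysomal RNA, which lists 4 of them (Pgk1, Pgam1, Pkm and Ldha). The samples were neural tissue (brain, neural tube) of E11.5 mouse embryos in 4 groups of 2 libraries: total and polysomal RNA of embryos homozygous for knockout alleles of Lin28a and Lin28b (Lin28a-/-;b-/-, double knockout, dKO), and total and polysomal RNA of wildtype embryos (WT). Polysomal RNA is the RNA bound to several ribosomes at once. Whether the alleles were deleted in the whole embryo, whether embryos were pooled and whether replicates came from separate embryos are not given in the labels, so p-values measure the spread between these libraries, which may be technical.

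Glycolysis splits glucose into pyruvate in the cytosol, and lactate dehydrogenase turns pyruvate into lactate, which restores the NAD+ that the pathway needs. Early neural tissue draws much of its energy and its building blocks from this route, and Slc2a1 is the main glucose transporter of the blood-brain barrier. Hexokinase, phosphofructokinase and pyruvate kinase catalyse the steps that are practically one-way and are the main points of control. Lin28a and Lin28b are RNA-binding proteins that block maturation of let-7 microRNAs and bind many messenger RNAs. Many glycolysis genes are known targets of HIF1, which binds ACGTG or GCGTG in DNA, and of MYC, which binds CACGTG.

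The 4 genes that fell most in dKO total RNA are shown first by the 250 bases before their most upstream RefSeq start (GRCm38.p6), read 5′ to 3′ on the strand of the gene, so that their start regions can be set side by side. Capitals mark these 3 motifs on either strand. The motif CACGTG holds the motif ACGTG within it. The windows are Pfkl at chr10:78009808-78010057 (minus strand), Pkm at chr9:59656326-59656575 (plus strand), Slc2a1 at chr4:119108495-119108744 (plus strand) and Ldha at chr7:46845554-46845803 (plus strand).
Pfkl: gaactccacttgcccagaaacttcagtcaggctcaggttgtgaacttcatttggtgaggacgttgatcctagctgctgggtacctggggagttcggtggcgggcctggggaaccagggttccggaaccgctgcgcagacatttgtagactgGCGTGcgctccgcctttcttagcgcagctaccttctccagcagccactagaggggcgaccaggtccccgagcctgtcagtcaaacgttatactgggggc
Pkm: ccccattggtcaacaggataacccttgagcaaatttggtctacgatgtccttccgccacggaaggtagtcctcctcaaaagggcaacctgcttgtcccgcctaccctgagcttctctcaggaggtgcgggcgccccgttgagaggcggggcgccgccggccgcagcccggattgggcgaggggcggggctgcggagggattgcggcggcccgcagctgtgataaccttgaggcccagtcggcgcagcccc
Slc2a1: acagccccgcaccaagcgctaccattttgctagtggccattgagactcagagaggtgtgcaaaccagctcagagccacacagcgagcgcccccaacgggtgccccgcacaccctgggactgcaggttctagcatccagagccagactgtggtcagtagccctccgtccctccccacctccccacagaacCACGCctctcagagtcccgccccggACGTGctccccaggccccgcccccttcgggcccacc
Ldha: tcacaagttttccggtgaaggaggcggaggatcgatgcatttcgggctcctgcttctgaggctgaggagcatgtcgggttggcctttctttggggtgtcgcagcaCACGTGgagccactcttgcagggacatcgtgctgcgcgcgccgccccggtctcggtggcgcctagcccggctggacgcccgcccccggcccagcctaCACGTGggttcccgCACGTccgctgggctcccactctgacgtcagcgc
The Ldha window held CACGTG at 2 places, and no other of the 10 genes held it, while 6.04% of 27025 promoter windows of the same length did. ACGTG was in 5 of the 10 windows (Slc2a1, Hk2, Pgk1, Pgam1 and Ldha) and in 16.5% of all windows. GCGTG was in 4 of the 10 (Slc2a1, Pfkl, Pgam1 and Eno1) and in 28.3% of all. The Pkm, Gpi1 and Aldoa windows held none of the 3. Ldha and Pkm each have 2 listed starts, and Aldoa and Eno1 each have 3. These matches describe letters in 1 window of each gene, not binding.

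Column sums in total RNA were 15768767 and 15612883 counts in dKO and 15650360 and 15060560 in WT. Lin28a had 7.14 ± 0.833 CPM (counts scaled to the size of the library) in dKO and 72.8 ± 0.789 in WT (SD, n = 2 each), and Lin28b 51.6 ± 4.98 in dKO and 125 ± 4.05 in WT, so both targeted genes were lower in the libraries labelled dKO. All 12 neural progenitor and all 12 neuron markers were measured above the filter. Beside the counts that follow, edgeR called 16.0% of all 14594 genes tested in total RNA lower and 14.7% higher (adjusted p under 0.05). Of the progenitor markers 5 were lower and 2 higher, with summed levels of 4228 and 4273 CPM in dKO and 4643 and 4682 CPM in WT. Sox3, a progenitor transcription factor, had a log2 fold change of -0.90 and Nes, the intermediate filament nestin, -0.30. Of the neuron markers 3 were lower and 5 higher, with sums of 4586 and 4574 CPM in dKO and 4707 and 4698 CPM in WT. The neurofilament genes Nefm and Nefl were at -1.30 and -0.72, and Rbfox3, the neuronal protein NeuN, at 0.58. Of 9 red blood cell markers tested, 8 were lower in dKO and none was at 0 in every library, with summed levels of 2758 and 2756 CPM in dKO and 4467 and 4532 CPM in WT. Of 13 mesenchyme markers 5 were lower, with sums of 666 and 676 CPM in dKO and 772 and 735 CPM in WT. None of 10 endothelial markers was called by edgeR, DESeq2 or limma-voom, and 0 had an unadjusted p under 0.05 (sums of 226 and 230 CPM in dKO, 220 and 219 CPM in WT). The part of these cell types in the glycolysis values was not tested, and in bulk RNA fewer cells of a type and less RNA per cell cannot be told apart.

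In total RNA, 6 of the 9 glycolysis genes that could be tested fell in dKO (Slc2a1, Hk2, Pfkl, Aldoa, Pkm and Ldha) and none rose. Among all 14594 genes tested 16.0% were lower and 14.7% higher, at a Benjamini-Hochberg adjusted p under 0.05 in edgeR's quasi-likelihood test. The median log2 fold change of dKO over WT was -0.31 over the 9 genes and 0.00 over all genes. No glycolysis gene was higher with DESeq2 or limma-voom either, and none had an unadjusted p under 0.05 in that direction. Summed over the genes, the level was 1420.3 and 1403.2 CPM in dKO, against 1891.1 and 1869.6 CPM in WT.

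Slc2a1 (GLUT1; GRCm38 chr4:119108711-119137983, plus strand), which brings glucose across the cell membrane, had 2373 and 2299 counts in dKO and 3274 and 3130 in WT. In CPM these were 151 and 148 in dKO and 209 and 207 in WT. Both dKO libraries lay well below both WT libraries, and the log2 fold change was -0.47 ± 0.05 (SE; edgeR adjusted p = 3.27e-21), so that Slc2a1 fell by 28.0% in dKO.

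Hk2 (chr6:82725025-82774454, minus strand), a hexokinase that traps glucose in the cell as glucose phosphate, had 405 and 344 counts in dKO and 464 and 451 in WT. The groups did not overlap, but the dKO libraries stood further apart than the WT libraries. Its log2 fold change was -0.31 ± 0.12 (edgeR adjusted p = 0.0311). The call was lost with DESeq2 (adjusted p = 0.115) and without dKO replicate 2 (log2 fold change -0.20, edgeR adjusted p = 0.34), WT replicate 1 (adjusted p = 0.0892) or WT replicate 2 (adjusted p = 0.109).

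Gpi1 (chr7:34201330-34230336, minus strand), which converts glucose phosphate to fructose phosphate, had groups that overlapped. It had 2138 and 1855 counts in dKO and 2142 and 1894 in WT, with a log2 fold change of -0.03 ± 0.06 (edgeR adjusted p = 0.698). Its sign turned without dKO replicate 2 (0.06) and without WT replicate 1 (0.02).

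Pfkl (chr10:77986947-78010083, minus strand), the liver-type phosphofructokinase of the committed step, had 1316 and 1207 counts in dKO and 1889 and 1773 in WT. Its log2 fold change of -0.56 ± 0.06 (edgeR adjusted p = 1.16e-16) was the greatest fall among the 10 genes, and the level fell by 32.0%. Aldoa (chr7:126795234-126800751, minus strand), the aldolase that cleaves fructose bisphosphate into 3-carbon sugars, had 4180 and 4137 counts in dKO and 5025 and 4874 in WT. Replicates of each genotype lay close together, and the log2 fold change was -0.27 ± 0.04 (edgeR adjusted p = 4.57e-11).

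Of the enzymes that work on the 3-carbon sugars, Pgk1 (chrX:106187100-106203699, plus strand), the phosphoglycerate kinase of the first ATP-forming step, had 316 and 342 counts in dKO and 369 and 392 in WT. Its groups did not overlap, yet the log2 fold change of -0.23 ± 0.13 did not pass the test (edgeR adjusted p = 0.162). Pgam1 (chr19:41911923-41918660, plus strand), phosphoglycerate mutase, had 117 and 88 counts in dKO and 81 and 65 in WT. It was the one gene of the 10 with higher values in both dKO libraries, at a log2 fold change of 0.47 ± 0.25 that also missed the threshold (edgeR adjusted p = 0.149). Eno1 (chr4:150236721-150248879, plus strand), the enolase of most tissues, was listed at 0 in every library and could not be tested.

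Pkm (chr9:59656368-59679375, plus strand), the pyruvate kinase of most tissues, had 6414 and 6399 counts in dKO and 9382 and 8866 in WT. Its log2 fold change was -0.53 ± 0.03 (edgeR adjusted p = 2.16e-64), so that the level fell by 30.7%. Ldha (chr7:46841475-46855627, plus strand), lactate dehydrogenase A, had 5061 and 5107 counts in dKO and 7066 and 6808 in WT. At a log2 fold change of -0.47 ± 0.03 (edgeR adjusted p = 1.37e-40) it fell by 27.7%. Counts per gene do not separate the splice forms of Pkm.

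**Figure D1:**
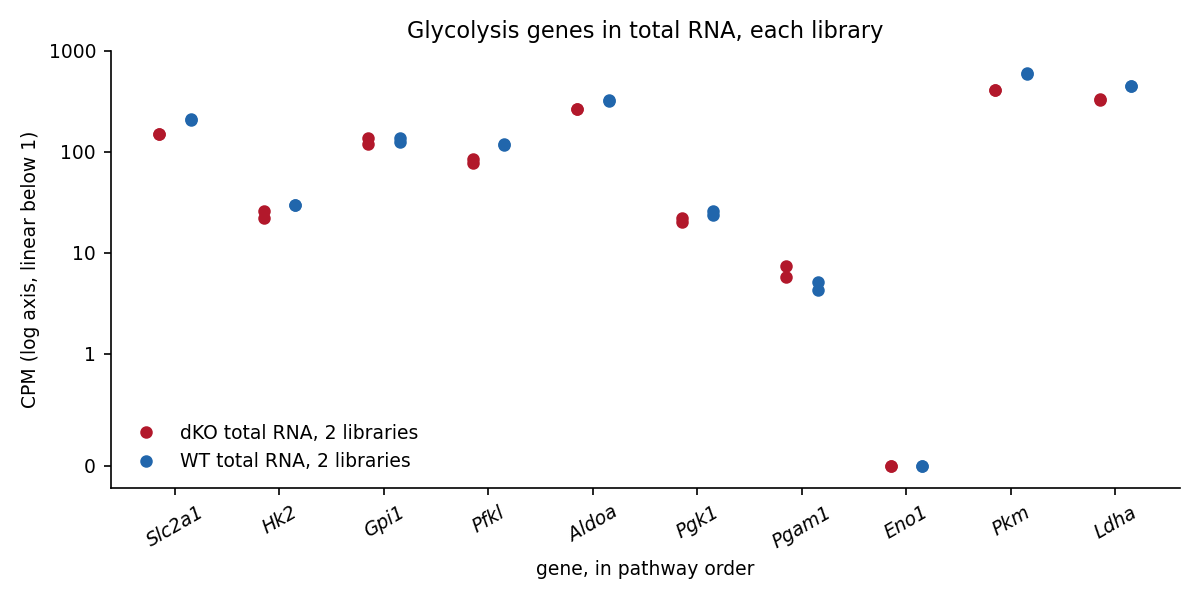
Level of each of the 10 genes in the 4 total RNA libraries, in CPM on a log axis that is linear below 1, with 1 point per library (dKO red, WT blue). Slc2a1, Hk2, Pfkl, Aldoa, Pkm and Ldha lie lower in both dKO libraries, Pgam1 lies higher, Gpi1 overlaps and Eno1 is at 0.

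Divided by the length of the gene's joined exons, the order of the levels was the same in both genotypes. Ldha averaged 98.4 CPM per kb in dKO and 136 in WT, and Pkm 82.0 in dKO and 118 in WT. Aldoa followed with 71.8 in dKO and 86.6 in WT, then Slc2a1 with 42.7 in dKO and 59.3 in WT. The others were lower: Gpi1 had 19.8 CPM per kb in dKO and 20.3 in WT, Pfkl 12.1 in dKO and 17.8 in WT, and Pgk1 9.39 in dKO and 11.0 in WT. Hk2 stood at 4.02 CPM per kb in dKO and 4.98 in WT, and Pgam1 at 3.31 in dKO and 2.39 in WT. Neighbours in this order did not overlap between libraries of a genotype, except Hk2 and Pgam1 in dKO. Per kb of the longest transcript the order changed in dKO, where Aldoa (172 CPM per kb) stood above Pkm (169), while in WT Pkm (243) stood above Aldoa (207).

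Most of the 10 genes share sequence with copies elsewhere in the genome. Of all 50-base windows in the coding sequence, the share with no match of up to 2 mismatches in another annotated gene was 0% for Pgk1, Pgam1 and Eno1, 0.777% for Pkm, 16.5% for Ldha, 16.9% for Gpi1 and 29.6% for Aldoa. It was 95.7% for Slc2a1, 99.7% for Hk2 and 100% for Pfkl. Over the whole transcript with exact matches it was 27.8% for Eno1, 32.0% for Pgk1, 58.5% for Pgam1 and 65.6% for Pkm. All 7 genes that share windows with Pgk1 are pseudogenes, as are all 6 for Pgam1, 29 of 29 for Ldha and 14 of 15 for Pkm. How reads that map to several places were counted is not given in the sources used here, so the levels of these genes are uncertain, and Slc2a1, Hk2 and Pfkl are those least touched. Eno1b, a copy of Eno1 on chromosome 18, had 468 and 514 counts in dKO and 896 and 929 in WT (log2 fold change -0.91 ± 0.09, edgeR adjusted p = 2.75e-20). That gene was chosen after its values were seen, and reads from sequence that Eno1 and Eno1b share cannot be told apart here. Over the whole transcript, 27.8% of Eno1 windows and 15.5% of Eno1b windows had no exact match in another annotated gene. Why Eno1 was at 0 was not tested.

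Other glycolysis genes, many of which share a step with the 10, fell more often than they rose. Of 24 other glycolysis genes 19 could be tested, of which 6 fell and 1 rose (median log2 fold change -0.08). Among all genes tested 16.0% were lower and 14.7% higher. DESeq2 called 2 genes lower and 1 higher. Slc2a3 (GLUT3), the neuronal glucose transporter, rose, with 58.5 ± 5.87 CPM in dKO and 45.3 ± 2.17 CPM in WT (SD, n = 2 each; log2 fold change 0.37 ± 0.09, edgeR adjusted p = 0.000196). Hk1, the hexokinase of the adult brain, fell with Hk2 (log2 fold change -0.39 ± 0.13, edgeR adjusted p = 0.00839). Pfkm, the muscle-type phosphofructokinase, fell with Pfkl (-0.37 ± 0.11, edgeR adjusted p = 0.00527), and Pfkp, the platelet type, did not pass (0.18, edgeR adjusted p = 0.633). Ldhb, the lactate dehydrogenase subunit of heart, was just under the threshold (-0.17 ± 0.07, edgeR adjusted p = 0.0497). Eno3, the muscle enolase, fell (-0.62 ± 0.20, edgeR adjusted p = 0.00845), while Eno2, the neuronal enolase, gave 0.33 (edgeR adjusted p = 0.187). Tpi1, triose phosphate isomerase, is added because it fills the step after Aldoa and was chosen with its values known (-0.32 ± 0.04, edgeR adjusted p = 2.23e-13).

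**Figure D2:**
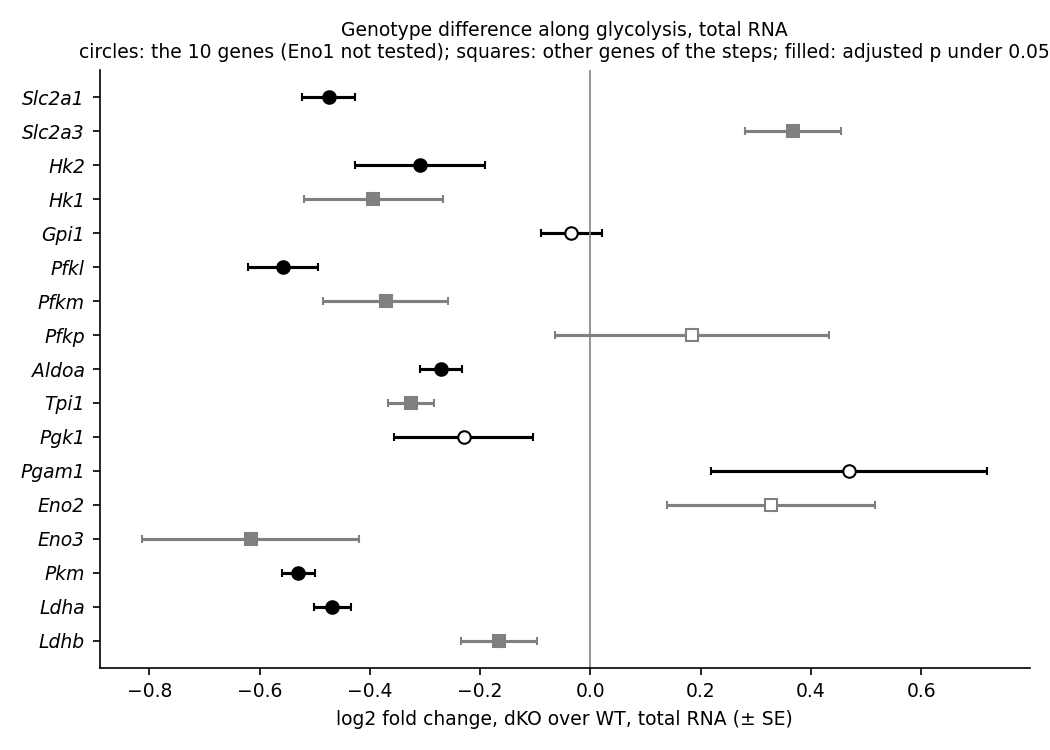
Log2 fold change of dKO over WT in total RNA with its SE, in pathway order. Circles are the 10 genes (Eno1 not tested) and squares are other glycolysis genes, filled where the edgeR adjusted p is under 0.05. Slc2a1, Pfkl, Pkm and Ldha lie between -0.47 and -0.56, and Slc2a3 lies at 0.37.

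The share that each gene holds of its step, from CPM per kb, was set beside these changes. Slc2a1 held 70.9% and 75.1% of the summed glucose transporters in dKO and 80.8% and 81.4% in WT, a difference of -8.11 percentage points. Slc2a3 held 14.2% and 13.4% in dKO and 8.79% and 8.33% in WT. Slc2a1 was thus lower, and Slc2a3 higher, both in level and in share.

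Ldha held 65.9% and 66.4% of lactate dehydrogenase in dKO and 70.7% in both WT libraries (-4.51 points). Of Ldhb coding windows, 12.2% had no match of up to 2 mismatches in another annotated gene, so the shares of this step are uncertain. Pfkl held 59.2% and 60.7% of phosphofructokinase in dKO and 64.2% and 62.5% in WT (-3.42 points). Hk2 held 57.4% and 55.5% of hexokinase in dKO and 58.4% and 55.1% in WT, and these overlapped (-0.25 points). Aldoa held 98.9% and 99.1% of aldolase in dKO and 99.2% and 99.6% in WT. With 2 libraries against 2, the smallest two-sided exact permutation p is 0.333, which Slc2a1, Slc2a3, Ldha, Pfkl and Aldoa reached and Hk2 did not, so the shares describe these libraries only. The Hk2 difference turned to 0.33 points when the longest transcript replaced the joined exons.

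**Figure D3:**
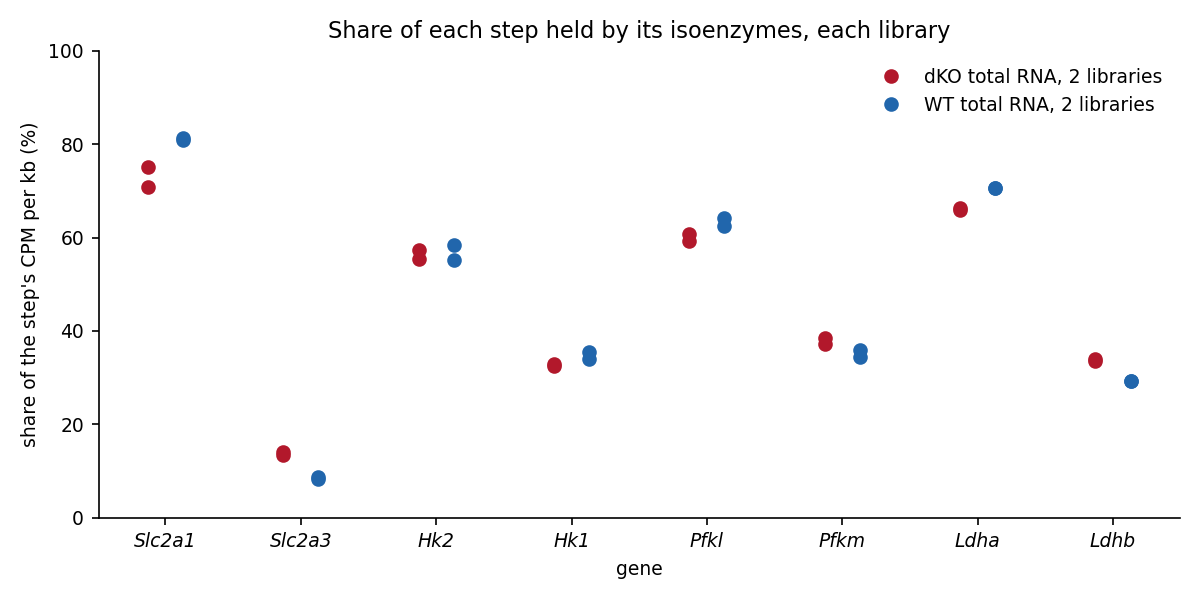
Share of the summed CPM per kb of a step held by each gene, in percent, with 1 point per total RNA library (dKO red, WT blue). The shares of Slc2a1 and Ldha lie lower in both dKO libraries, those of Slc2a3 and Ldhb lie higher, and those of Hk2 overlap.

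Past pyruvate, the 17 citric acid cycle genes had 13 falls and no rise (median log2 fold change -0.25; 0 higher with DESeq2 or limma-voom and 0 at an unadjusted p under 0.05). Among them, Suclg1, a subunit of succinyl-CoA ligase, fell by 0.57 on the log2 scale (33.1 CPM in dKO and 49.2 CPM in WT) and Sdha, of succinate dehydrogenase, by 0.42 (66.4 CPM in dKO and 89.0 CPM in WT). Of 15 genes that carry pyruvate into mitochondria, act on it there or control that step, 5 fell and 2 rose (median -0.17). With DESeq2 these were 2 and 0. Among all genes tested 16.0% were lower and 14.7% higher. Of the pyruvate carriers, Mpc2 rose (0.21) and Mpc1 was not called (0.43). Dld, a subunit of pyruvate dehydrogenase, fell (-0.49, edgeR adjusted p = 1.45e-10) and Pdk2, a kinase that switches the complex off, rose (0.53, edgeR adjusted p = 0.019). The 8 genes of the pentose phosphate pathway, which branches off after hexokinase, held 2 falls and no rise by edgeR, DESeq2 and limma-voom, with no rise at an unadjusted p under 0.05. These were Tkt, transketolase (-0.53 ± 0.05, edgeR adjusted p = 5.11e-25), and Pgd, phosphogluconate dehydrogenase (-0.43, edgeR adjusted p = 1.1e-05).

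Another 9 genes carry lactate or set the regulatory fructose bisphosphate, which is not the one that Aldoa cleaves. Of these, Slc16a1 (MCT1), a lactate transporter, was the 1 that fell (-0.35, edgeR adjusted p = 1.93e-06), and 0 rose with edgeR, DESeq2 or limma-voom. In edgeR 1 was higher at an unadjusted p under 0.05 (median of the list 0.01). Over all genes tested, edgeR called 16.0% lower and 14.7% higher.

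Other known targets of hypoxia signalling rose more often than they fell. Of 22 tested, 8 rose and 1 fell (median 0.03). Egln3, a prolyl hydroxylase that marks HIF1 for decay, rose (0.73 ± 0.11, edgeR adjusted p = 1.45e-10), as did Mxi1, a MYC antagonist (0.35, edgeR adjusted p = 1.27e-08), while Ero1l, an oxidase of the endoplasmic reticulum, fell (-0.54, edgeR adjusted p = 1.04e-08). Of 12 regulators of glycolysis genes 3 fell and 1 rose (median 0.02), or 2 and 1 with DESeq2. Among all genes tested 16.0% were lower and 14.7% higher. Hif1an, an inhibitor of HIF1, fell most (-0.57, edgeR adjusted p = 1.9e-16), Hif1a fell slightly (-0.17, edgeR adjusted p = 0.00444), Arnt, the partner of HIF1A, fell (-0.19, edgeR adjusted p = 0.0405) and Vhl, which targets HIF1A for decay, rose (0.17, edgeR adjusted p = 0.00933). Of 6 gluconeogenesis genes 2 could be tested, and edgeR, DESeq2 and limma-voom called 0 of them, with 0 at an unadjusted p under 0.05.

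**Figure D4:**
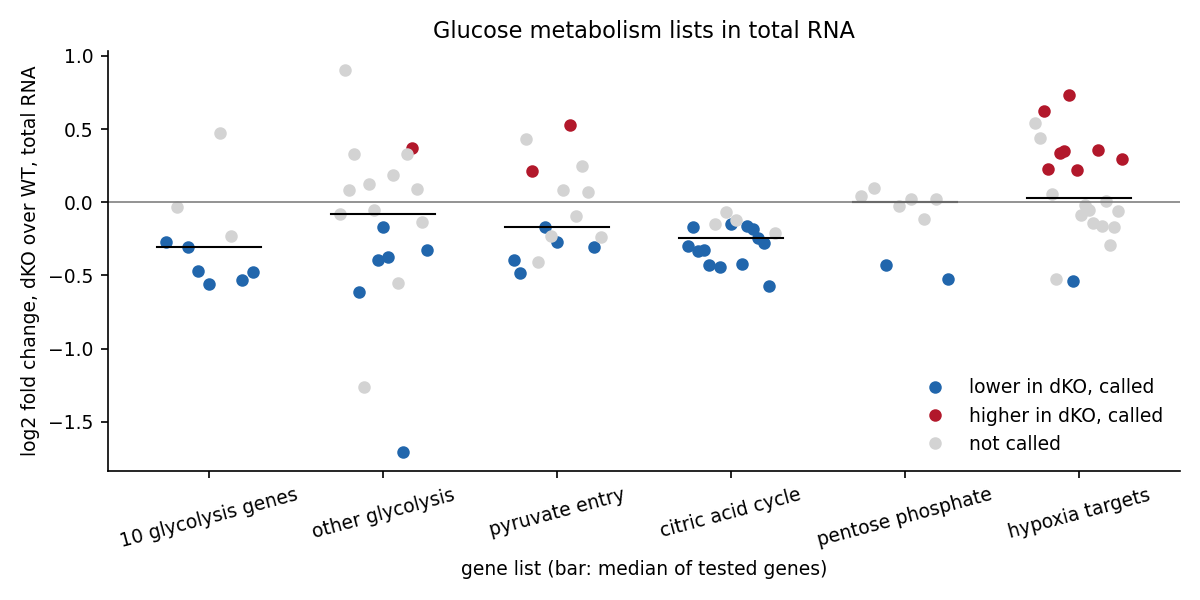
Log2 fold change of dKO over WT in total RNA for each tested gene of 6 lists, with the median as a bar, coloured where the edgeR adjusted p is under 0.05. Of the glycolysis genes 6 are lower and 0 higher, of the citric acid cycle genes 13 lower and 0 higher, and of the hypoxia targets 1 lower and 8 higher. Among all genes tested 16.0% were lower and 14.7% higher.

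In the polysomal table, Pgk1, Pgam1 and Ldha were lower in dKO and Pkm was higher. This table is a picked set: taking genes that averaged 100 counts or more, no log2 ratio of raw counts fell between -2.04 and -1.71, with 2927 genes below and 2514 above. Listed genes summed to 3740980 and 5164982 counts in dKO and 14874143 and 15414712 in WT, which are not library depths, and levels are scaled to the listed genes alone. Of 5777 genes tested, 52.5% were called lower and 47.2% higher, so nearly every listed gene passed the test.

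Pkm had 4549 and 6194 polysomal counts in dKO and 12385 and 13205 in WT, which is 1338 and 1220 CPM of the listed genes in dKO and 787 and 810 in WT. Raw counts were thus lower in dKO and scaled levels higher, at a log2 fold change of 0.68 ± 0.06 (edgeR adjusted p = 0.000252). Ldha had 1857 and 2998 counts in dKO and 10825 and 11391 in WT, or 546 and 590 CPM in dKO and 688 and 699 CPM in WT (log2 fold change -0.29 ± 0.06, edgeR adjusted p = 0.00473).

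Pgk1 had 25 and 70 counts in dKO and 563 and 665 in WT, which is 7.35 and 13.8 CPM in dKO and 35.8 and 40.8 CPM in WT (log2 fold change -1.81 ± 0.28, edgeR adjusted p = 0.00137). Pgam1 had 0 and 18 counts in dKO and 143 and 208 in WT, and its fold change rests on the second dKO library (-2.41 ± 0.75, edgeR adjusted p = 0.0188). Without dKO replicate 1 it was -1.62. Without dKO replicate 2 the remaining dKO library is at 0, and the fitted -10.02 is no bound. Pgk1 was at -1.47 without dKO replicate 1 and at -2.41 without dKO replicate 2. For all 4 genes the dKO libraries lay on 1 side of the WT libraries on the scaled level. Nearly every listed gene was called (52.5% lower, 47.2% higher). The share of listed genes without overlap was not counted, so the lack of overlap does not set the 4 genes apart.

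Across 5572 genes of the polysomal table the fold change went up with transcript GC content (Spearman's rho 0.771, a description across genes of the same libraries), against -0.0875 across 14039 genes in total RNA. Transcript GC was 57.7% for Pkm, 52.8% for Pgam1, 51.5% for Ldha and 49.7% for Pgk1. With an offset for GC, the polysomal log2 fold change of Pkm turned to -0.29 (edgeR adjusted p = 0.00317), and those of Ldha, Pgk1 and Pgam1 were -0.51, -1.75 and -2.83. Under RLE scaling, which moved the median of all genes by 0.24, Ldha was at -0.05 (edgeR adjusted p = 0.461), with DESeq2 also at -0.05 (adjusted p = 0.601), and without WT replicate 2 at -0.28 (edgeR adjusted p = 0.0648). The direction of Pkm in polysomal RNA therefore depends on the GC correction, and the call of Ldha on the scaling.

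**Figure D5:**
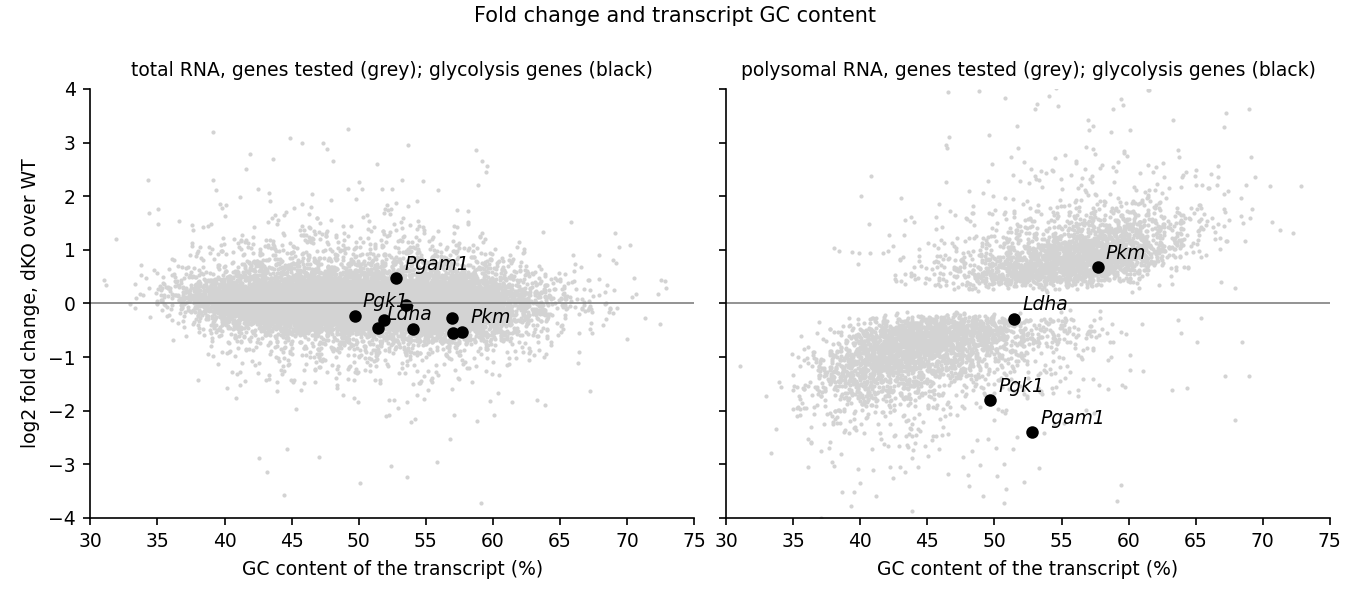
Log2 fold change of dKO over WT against transcript GC content in percent, for genes tested in total RNA (left) and polysomal RNA (right), with the glycolysis genes in black and points beyond 4 in either direction not drawn. In polysomal RNA the cloud climbs with GC content (rho 0.771), and Pkm at 57.7% GC lies above 0 while Ldha, Pgk1 and Pgam1 lie below.

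Polysomal and total RNA were then compared within each genotype over all 8 libraries. In WT, none of the 4 genes was called by edgeR between polysomal and total RNA, and 1 had an unadjusted p under 0.05. Among all genes of that comparison 8.51% were lower and 3.48% higher in polysomal RNA. The log2 differences were 0.05 ± 0.17 for Pgk1, 0.63 ± 0.40 for Pgam1, -0.15 ± 0.05 for Pkm (edgeR adjusted p = 0.0731) and 0.05 ± 0.05 for Ldha. Without either dKO polysomal library, Pkm passed as lower (edgeR adjusted p = 4.22e-05 without dKO polysomal replicate 1 and 1.56e-05 without replicate 2) and Pgam1 as higher (edgeR adjusted p = 0.0274 and 0.0269). In dKO the same differences were -1.47 ± 0.23 for Pgk1, -2.19 ± 0.61 for Pgam1, 1.10 ± 0.05 for Pkm and 0.27 ± 0.05 for Ldha (SE), and all 4 passed, where 46.9% of all genes were lower and 43.1% higher. Without dKO polysomal replicate 1 the dKO difference was -1.13 for Pgk1 and -1.41 for Pgam1. Without dKO polysomal replicate 2 it was -2.06 for Pgk1, and the fitted value of Pgam1 against a library at 0 was -9.74. The interaction of genotype with fraction passed for all 4 genes (Pgk1 and Pgam1 lower, Pkm and Ldha higher), where 45.8% of all genes were lower and 43.7% higher. As the polysomal table is a picked set, these calls do not set the 4 genes apart. The interaction followed transcript GC across 5576 genes (Spearman's rho 0.795, a description). With the GC offset Pkm was at 0.30 (edgeR adjusted p = 0.000884) and Ldha lost its call at -0.01 (edgeR adjusted p = 0.907).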

How the data were processed

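Strand-specific libraries (NEBNext Ultra Directional) were made from Trizol RNA, per the labels' protocols. Per the submitters' processing notes, TopHat, HTSeq and FastQC were used, and the builds mm9, mm10 and GRCm38 are mentioned without a role. The authors deposited raw counts of reads for each gene symbol. The sources used here do not say which strand setting and annotation were used, how reads with several places were counted or how polysomes were collected.

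Genotypes were compared within each fraction with edgeR 4.0.16 (quasi-likelihood test, TMM scaling, filterByExpr) in R 4.3.3, Benjamini-Hochberg adjusted over all genes tested with a threshold of 0.05. The fit left 14594 genes in total RNA, 5777 in polysomal RNA and 5780 in both. Fractions and the interaction used all 8 libraries and 4 group means. The SE of a log2 fold change is its size over the root of its F statistic. CPM use TMM-scaled sums. Biological coefficients of variation were 0.0504 in total and 0.0898 in polysomal RNA. Replicate counts differed by more than sampling noise in every group (chi-square per degree of freedom 2.88 to 24.8, highest in dKO polysomal RNA).

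Alternatives were DESeq2 1.42.0, voom from limma 3.58.1, scaling by RLE or the upper quartile, 2 filters, a replicate block, GC and length offsets (loess span 0.5), all libraries in 1 fit and each library left out; a scaling centred on the empty range of the polysomal ratios, leave-one-out in the interaction and fraction comparisons, the block in the fraction comparisons and levels per kb of the longest transcript were added after seeing the data. Places, lengths and GC come from GENCODE M21 (GRCm38), which matched 96.2% of the genes tested in total RNA; promoters come from RefSeq. Windows of 50 bases were compared among annotated transcripts. The tests were checked on simulated data with a small share of genes changed and no GC trend. The polysomal data differ in both, so this check cannot vouch for polysomal or interaction calls.

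Named genes are the 10, Lin28a and Lin28b, up to 4 called genes of each list with at least 5 CPM and the greatest change, other genes of a step with at least 5 CPM and the 5 nearest in profile; not all are printed. Eno1b, Tpi1, Gapdh, Mpc1 and Mpc2 are named outside this rule. The 10 genes and the lists were chosen with earlier results of these data known.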

Additional observations from a re-analysis of the deposited data

Results flagged for a closer look

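The genotype effect differed between polysomal and total RNA for all 4 glycolysis genes listed in both, by edgeR's test of the interaction over 8 libraries. The polysomal effect minus the total RNA effect was -1.53 ± 0.29 for Pgk1 (edgeR adjusted p = 0.000656), -2.82 ± 0.73 for Pgam1 (adjusted p = 0.00428), 1.24 ± 0.07 for Pkm (adjusted p = 4.88e-07) and 0.22 ± 0.07 for Ldha (adjusted p = 0.0131), all on the log2 scale. Of all genes in that comparison 45.8% were called lower and 43.7% higher. They all come from the polysomal table, a picked set. Among its genes averaging 100 counts or more, no log2 ratio of raw counts of dKO over WT fell between -2.04 and -1.71. A difference was thus likely beforehand for any listed gene, and these tests do not set the 4 genes apart. Without dKO polysomal replicate 1, Pgam1 was at -2.04 and Pgk1 at -1.19. Without dKO polysomal replicate 2, Pgk1 was at -2.12, and Pgam1, whose remaining dKO polysomal library is at 0, gave a fitted -10.37 that is no bound. With the GC offset Pkm was at 0.30 (adjusted p = 0.000884) and Ldha at -0.01 (adjusted p = 0.907). Without dKO total replicate 1 or WT polysomal replicate 1, Ldha missed the threshold (edgeR adjusted p = 0.0574 and 0.0566).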

How the results depend on the processing

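Of 121 values of the 9 glycolysis genes under alternatives in total RNA, 115 kept direction and side of the threshold. The exceptions were Hk2, lost under 4 alternatives, and Gpi1, which ran from -0.13 to 0.06 when single libraries were left out (0.02 without WT replicate 1). DESeq2 called 1548 genes lower and 1396 higher in total RNA, and 5 of the glycolysis genes lower. With all 8 libraries in 1 fit, which holds only the genes in both tables, 696 genes were lower and 590 higher, with 2 glycolysis genes lower (Pkm and Ldha). With the GC offset, polysomal calls were 1519 lower and 1314 higher with 0 glycolysis genes higher, and Pkm turned to -0.29. In the interaction the offset left 1236 lower and 1207 higher, with 1 glycolysis gene higher, and Ldha turned to -0.01. Leaving out single libraries, the interaction held 1 to 2 glycolysis genes higher. Within WT, polysomal against total RNA gave 157 to 1101 genes lower and 22 to 921 higher, with 0 to 1 glycolysis genes each way, and Pgk1 ran from -0.04 to 0.14 (-0.02 without WT total replicate 1). The Hk2 share difference turned to 0.33 points with the longest transcript. The cause was not tested.

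Replicate numbers were not taken to pair the libraries, with 2 pairs in each check. Between genotypes, deviations of same-numbered libraries correlated at 0.00344 over 11535 genes in total and 0.0229 over 5618 in polysomal RNA. Between polysomal and total RNA they correlated at 0.0389 in dKO and 0.0226 in WT over 5605 genes. With the replicate block, 6 glycolysis genes were lower and 0 higher in total RNA (2271 and 2098 of all genes), 3 lower and 1 higher in polysomal RNA (3042 and 2729), and 2 lower and 2 higher in the interaction (2621 and 2508). For polysomal against total RNA, where the block was added after seeing the data, it gave 2 lower and 2 higher in dKO (2701 and 2482) and 0 and 0 in WT (442 and 153). The block changed no call of a glycolysis gene. Depth limits Pgam1, with 0 and 18 polysomal counts in dKO, and Pgk1, with 25 and 70.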

Other observations

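Over 8290 genes averaging 20 CPM or more, those whose centred log2 level over the 4 total RNA libraries lay nearest to the median profile of the glycolysis genes were Suv39h2, a histone methyltransferase (distance 0.0375), Kpnb1, a nuclear import receptor (0.038), 2210016F16Rik (0.0391), Cpsf2, of the polyadenylation machinery (0.0401), and Skp2, which selects proteins of the cell cycle for degradation (0.0403). Their log2 fold changes of dKO over WT were between -0.34 and -0.37. Gapdh, the enzyme between Tpi1 and Pgk1, averaged 0.671 CPM in dKO and 1.63 CPM in WT. At this low level its log2 fold change of -1.27 in total RNA was not called by edgeR. Of its coding windows, 5.64% have no match elsewhere among annotated genes.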
